A study of Arabidopsis thaliana with 2 samples.

Results

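The WRKY family of Arabidopsis thaliana was examined in a chromatin immunoprecipitation sequencing (ChIP-seq) peak list of SOG1. The family was taken as the 72 protein-coding genes of the RefSeq gene table whose symbol or synonym contains WRKY, with TTG2, which is WRKY44. They are 72 of 27444 protein-coding genes. Members called named are those that the authors' peak list gives as the gene of at least 1 peak, under a symbol containing WRKY. There were 16 of them, at 19 peaks, and 56 members were not named. Because the 16 were chosen by being in the peak list, and so by the same reads as every peak value in it, the peak values below describe those genes and no test was made on them.

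The peaks come from 1 library of Col-0 plants that carried SOG1-Myc, a Myc-tagged SOG1 driven by the SOG1 promoter (genotype label ProSOG:SOG1-Myc). The plants were 2 weeks old, were grown in shaken liquid culture under continuous light, and received 15 µM zeocin for 2 h before whole plants were collected. Zeocin is a drug that breaks DNA. The series' other library is Col-0 without the tag, labelled mock and precipitated with the same anti-Myc antibody; its values were not analysed here. By design text and labels the 2 libraries differ in tag and in drug, so what the tag and what the drug contribute cannot be told apart. A treatment note attached to the mock library also speaks of zeocin, and the label was followed. The tagged plants are described as wild type harbouring the transgene, so that untagged SOG1 is present beside the tagged protein, and the sources used here do not give the number of independent lines.

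WRKY proteins are plant transcription factors named for conserved residues of their zinc-binding DNA-binding domain, which recognises the W-box element of target promoters. They are sorted into group I, with a pair of WRKY domains, group II, with a single domain and subgroups IIa to IIe, and group III, whose zinc finger has another form. Many act downstream of immune receptors and mitogen-activated protein kinase (MAPK) cascades, and others act in leaf senescence, heat and nutrient responses, seed development or leaf hair formation. SOG1 is a NAC transcription factor that is phosphorylated after DNA damage and drives much of the plant transcriptional response to it. The peak list bears on which WRKY genes lie where SOG1-Myc was found after zeocin, and holds no expression values.

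In all, 22.2% of WRKY loci were named (16 of 72, exact 95% binomial interval 13.3 to 33.6), beside 4.99% of all protein-coding loci (1369 of 27444). The 72 members were taken by gene name, but the family was chosen with earlier results of these data known. The share is therefore a description and was given no test. Among other families of transcription factors, found by symbol in the same gene table, 7 of 36 ERF and DREB genes were named (19.4%, interval 8.19 to 36.0), 8 of 46 bZIP genes (17.4%, interval 7.82 to 31.4) and 10 of 100 NAC genes (10%, interval 4.90 to 17.6). Genes of these other families with other kinds of name were not taken, so the 3 sets may be incomplete. The intervals of these families and of the WRKY family overlap, and no difference between families was tested. The intervals cover counting error only. Among the 389 peaks with the highest fold enrichment 10 WRKY loci were named, beside 2.51% of protein-coding loci, and among the 389 with the highest Decibel Score, a score of the authors whose formula is not stated, 8 were, beside 2.51%.

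**Figure D1:**
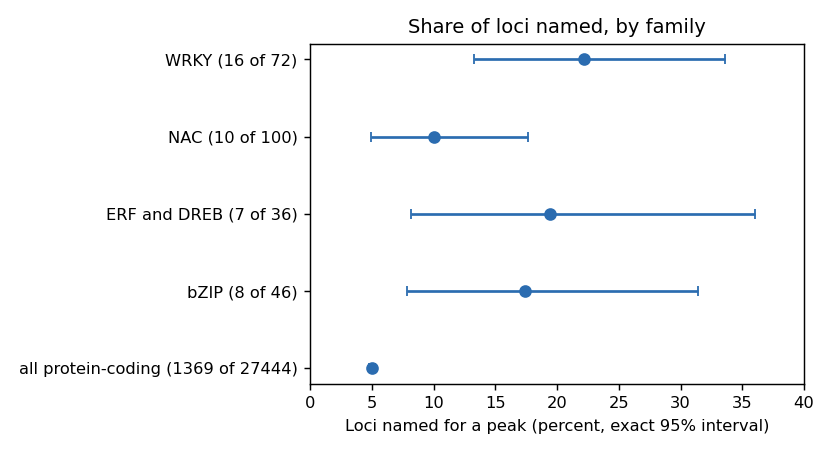
Share of loci named for a SOG1-Myc peak, in percent, for 4 transcription factor families, as found by gene name, and for all protein-coding loci. Points are shares and bars exact 95% binomial intervals. The WRKY share of 22.2% lies above the 4.99% of all protein-coding loci, and the 4 family intervals overlap.

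The WRKY peaks were of middling strength by fold enrichment and by reads. Their fold enrichment, a ratio given by the authors whose denominator is not stated, ran from 3.0 to 8.34 with a median of 4.55, beside a median of 4.33 and a range of 2.49 to 23.0 over all 778 peaks. None of the 19 reached 10-fold, a level that 23 peaks of the list reached. Under 5-fold lay 15 of the 19 (78.9%), and 562 of 778 in the whole list (72.2%). Reads per peak ran from 50 to 227 with a median of 77, beside a median of 75 over all peaks. The 19 peaks held 1728 of the 78249 reads inside peaks (2.21%). WRKY11, at 3.0-fold, was the weakest member by fold enrichment, at rank 741 of 778.

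**Figure D2:**
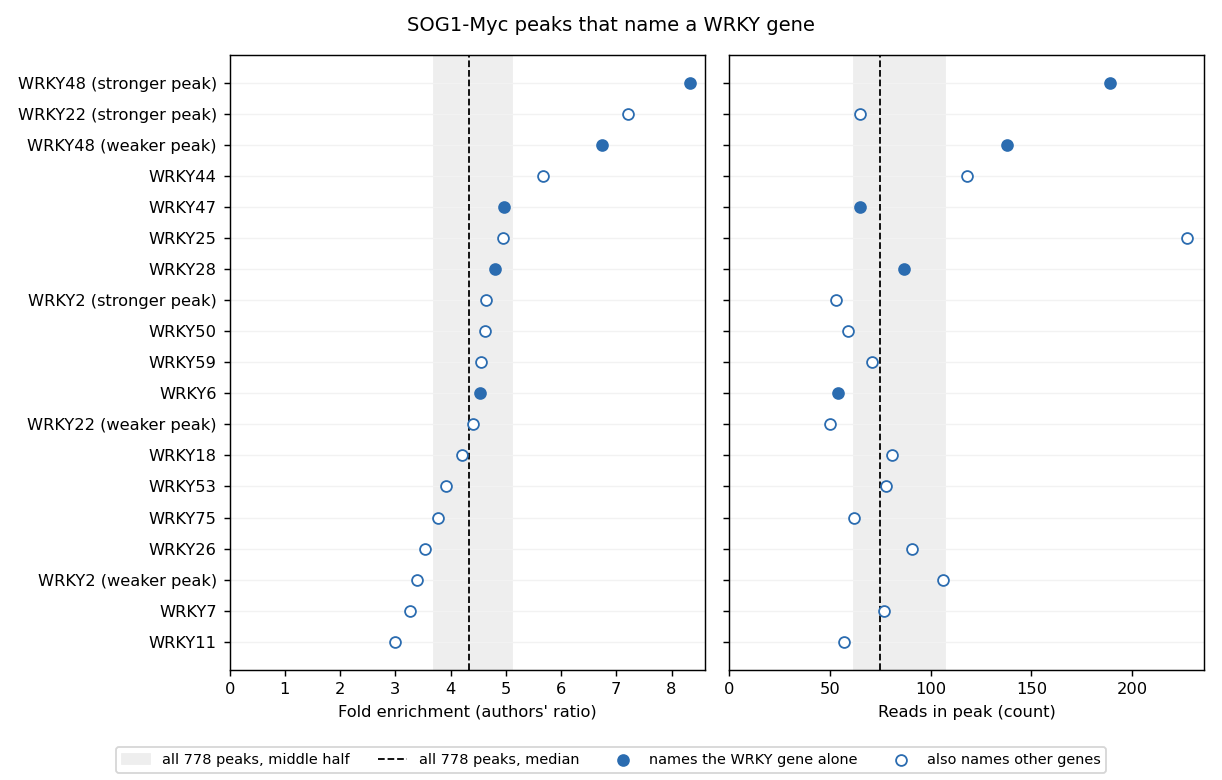
Fold enrichment (left, authors' ratio) and reads (right, count) of the 19 peaks that name a WRKY gene, with the median (dashed) and the middle 50% (grey) of all 778 peaks. Filled points name the WRKY gene alone and open points name other genes too; 4 peaks lie above the grey band by fold enrichment, those of WRKY48 (8.34 and 6.75), WRKY22 (7.21) and WRKY44 (5.68).

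WRKY48 (AT5G49520), a stress-induced factor known as a repressor of basal defence against bacteria, had the highest fold enrichment of the family. Its higher peak lay at chromosome 5, 20088158 to 20089707, with 189 reads (exact 95% Poisson interval 163 to 218) and 8.34-fold enrichment, rank 42 of 778 by fold. Its other peak, at 20086842 to 20088008, held 138 reads (interval 116 to 163) at 6.75-fold, rank 73. WRKY48 was the only gene named at either peak, and its peaks ranked 39 and 93 of 778 by the Decibel Score. Of the other WRKY peaks, that of WRKY25 ranked 80 by this score and that of WRKY44 108. Another peak, of 3.91-fold and 64 reads, ended 1987 bp before them and did not name WRKY48.

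Several other members act in immune signalling. WRKY22 (AT4G01250), which acts after a MAPK cascade in the response to bacterial flagellin, reached 7.21-fold at its higher peak, at chromosome 4, 525014 to 525740, rank 58 by fold but only 519 by reads, with 65 reads (interval 50.2 to 82.8). A peak of 4.40-fold followed at 526213 to 526762 with 50 reads (37.1 to 65.9). The read intervals of these peaks overlap, so their order by reads is not resolved by counting error. WRKY29, which acts beside WRKY22 in flagellin signalling, was not named.

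WRKY28 (AT4G18170), an activator of salicylic acid synthesis, was the sole gene at a 4.80-fold peak of 87 reads (interval 69.7 to 107) at chromosome 4, 10059902 to 10060839. WRKY50 (AT5G26170), linked to salicylic acid responses and to repression of jasmonate signalling together with WRKY51, had a 4.62-fold peak of 59 reads (44.9 to 76.1) at chromosome 5, 9147963 to 9148675. WRKY51 was not named. WRKY18 (AT4G31800), which works with WRKY40 and WRKY60 in defence and abscisic acid responses, had a 4.21-fold peak of 81 reads (64.3 to 101) at chromosome 4, 15381240 to 15382346. Neither WRKY40 nor WRKY60 was named.

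Subgroup IId, whose proteins bind calmodulin and include repressors of basal resistance, gave the lowest fold values. WRKY7 (AT4G24240) had 3.27-fold and 77 reads (interval 60.8 to 96.2) at chromosome 4, 12572855 to 12573781, rank 696 by fold. WRKY11 (AT4G31550) had 3.0-fold and 57 reads (43.2 to 73.9) at chromosome 4, 15291126 to 15291894, rank 741. WRKY17, the close relative that acts with WRKY11, was not named.

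Other members are known from leaf senescence. WRKY53 (AT4G23810), a positive regulator of senescence, had 3.91-fold enrichment and 78 reads (interval 61.7 to 97.3) at chromosome 4, 12395727 to 12396705. WRKY6 (AT1G62300), which acts in senescence, defence and phosphate responses, stood alone at a 4.54-fold peak of 54 reads (40.6 to 70.5) at chromosome 1, 23020124 to 23020837. WRKY75 (AT5G13080), known from phosphate starvation and senescence, had a 3.78-fold peak of 62 reads (47.5 to 79.5) at chromosome 5, 4152354 to 4153110. By fold WRKY53, WRKY6 and WRKY75 ranked 501, 324 and 557 of 778, by reads 370, 682 and 571, and by Decibel Score 409, 750 and 536.

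Heat and stress factors of group I ranked higher by reads than by fold. WRKY25 (AT2G30250), which acts in heat and salt responses and is linked to the kinase MPK4, held the most reads of any WRKY peak, 227 (interval 198 to 259), at chromosome 2, 12904373 to 12905819, rank 51. Its fold enrichment was 4.95, rank 232. Reads divided by fold enrichment came to 45.9 for WRKY25, beside 9.01 for the 7.21-fold peak of WRKY22 and a median of 17.8 over all peaks; what this quotient measures is not known, since the make-up of the ratio is not stated. WRKY26 (AT5G07100), which acts with WRKY25 and WRKY33 in heat tolerance, had 91 reads (73.3 to 112) at 3.54-fold, at chromosome 5, 2203481 to 2204533. WRKY33, the third of that set, was not named.

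Developmental members were also present. WRKY44, or TTG2 (AT2G37260), needed for leaf hairs and for the seed coat, had a 5.68-fold peak of 118 reads (interval 97.7 to 141) at chromosome 2, 15641255 to 15642179, rank 129 by fold. WRKY2 (AT5G56270), a factor of zygote polarity, pollen and germination, had peaks of 3.40-fold with 106 reads (86.8 to 128) at chromosome 5, 22776966 to 22778078, and of 4.65-fold with 53 reads (39.7 to 69.3) at 22779297 to 22779911. The peak with more reads was thus the one with the lower fold. The remaining named members, WRKY47 and WRKY59, are given here without a role. WRKY47 (AT4G01720) was the sole gene at a 4.97-fold peak of 65 reads at chromosome 4, 743737 to 744460. WRKY59 (AT2G21900) was named at a 4.55-fold peak of 71 reads at chromosome 2, 9337991 to 9338771.

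WRKY48, WRKY22 and WRKY2 were the 3 members with 2 peaks, 18.8% of the 16, beside 88 of the 1369 named protein-coding genes (6.43%). In the other families, 2 of the 8 named bZIP genes and 1 of 7 ERF and DREB genes had 2 or more peaks. None of the 10 named NAC genes did. Repeated peaks were thus not particular to WRKY genes, and no difference between families was tested. The gap between the peaks was 149 bp at WRKY48, 472 bp at WRKY22 and 1218 bp at WRKY2, and the summits lay 1179, 953 and 1935 bp apart. The median gap between adjacent peaks of the list was 84.3 kb, and 33 of 773 adjacent pairs were closer than 1000 bp. At WRKY48 each summit was nearer to the gap-side edge of its peak than to the outer edge, and the reads of both peaks summed to 327. Whether such neighbouring peaks are separate sites or a single divided region was not tested.

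**Figure D3:**
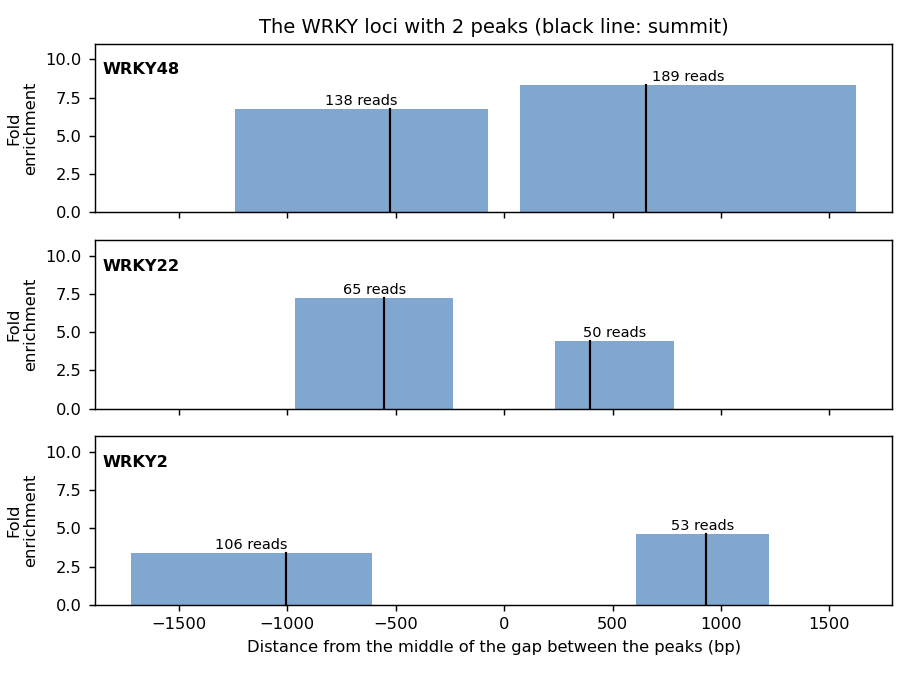
Peaks of the 3 WRKY loci with 2 peaks, drawn to scale as distance in bp from the middle of the gap between them; bar width is peak length, bar height the authors' fold enrichment, and the black line the summit. The gap widens from 149 bp at WRKY48 to 472 bp at WRKY22 and 1218 bp at WRKY2.

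Peak lengths ran from 550 bp at the weaker WRKY22 peak to 1549 bp at the stronger WRKY48 peak, with a median of 925 bp beside 837 bp for all peaks. Reads followed length closely, with a Spearman rho of 0.926 over the 19 WRKY peaks and 0.954 over all 778, all from the same library. Fold enrichment followed reads weakly (rho 0.313 over the 19 and 0.226 over the 778) and length hardly at all (0.0772 and 0.0763). Per kb of peak, WRKY25 held 157 reads, WRKY44 128, and the WRKY48 peaks 122 and 118, while the other WRKY peaks lay between 73.2 and 95.3. The median over the 19 was 89.4 reads per kb and that over all peaks 88.6. The summit stood at a median of 54.3% of the peak length from its start (range 26.5 at WRKY18 to 68.6 at WRKY11), beside 51.2% for all peaks.

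**Figure D4:**
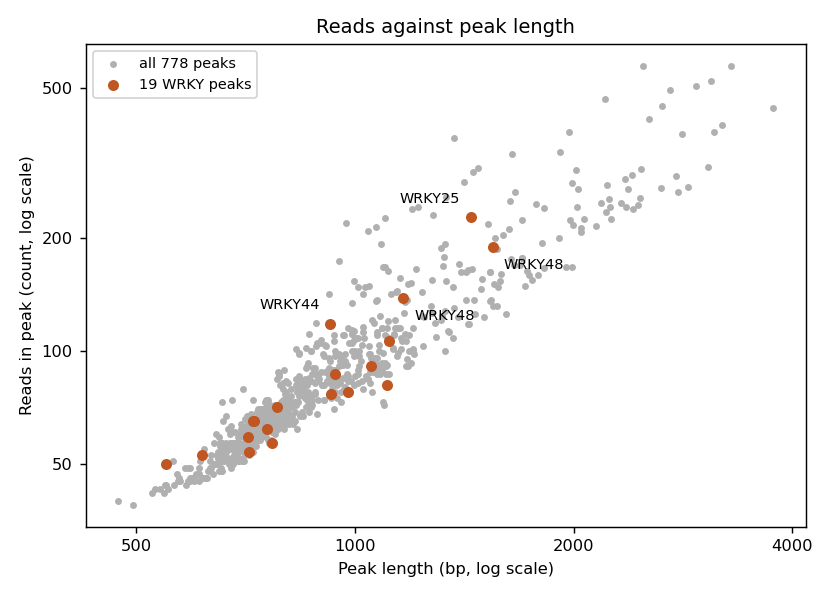
Reads against peak length, both on log scales, for the 19 WRKY peaks (orange) among all 778 peaks (grey). Most WRKY peaks lie in the dense band, with WRKY25 (227 reads in 1446 bp) and WRKY44 (118 reads in 925 bp) on its upper side.

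The false discovery rate that the authors give for each peak, read here as a q-value, was 0.125 at WRKY25, 0.179 at the stronger WRKY48 peak and between these at the other WRKY peaks. Read as a fraction, no WRKY peak was at or under 0.05, nor was any of the 778 peaks. The header gives no unit, so whether the values are fractions or percents is not known. If they are percents, 0.05 is not a 5% limit. The WRKY48 peak with the highest value, 0.179, also had the highest Decibel Score of the WRKY peaks, 408.

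Named loci were spread over the family's subgroups, which were assigned from general knowledge of the family. Group I had 4 of 13 named (WRKY2, WRKY25, WRKY26 and WRKY44; 30.8%, exact interval 9.09 to 61.4) and subgroup IIc 5 of 17 (WRKY28, WRKY48, WRKY50, WRKY59 and WRKY75; 29.4%, interval 10.3 to 56.0). Subgroups IIa, IIb, IId and IIe had 1 of 3, 2 of 8, 2 of 7 and 1 of 7. Group III, with many immunity and senescence genes, had WRKY53 alone of 13 (7.69%, interval 0.195 to 36.0). These intervals overlap, and the subgroups were not shown to differ. The 4 members left without a subgroup, WRKY16, WRKY19, WRKY45 and WRKY52, were not named. They are left out of the subgroup counts above, so a subgroup to which any of them belongs has more loci than given.

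**Figure D5:**
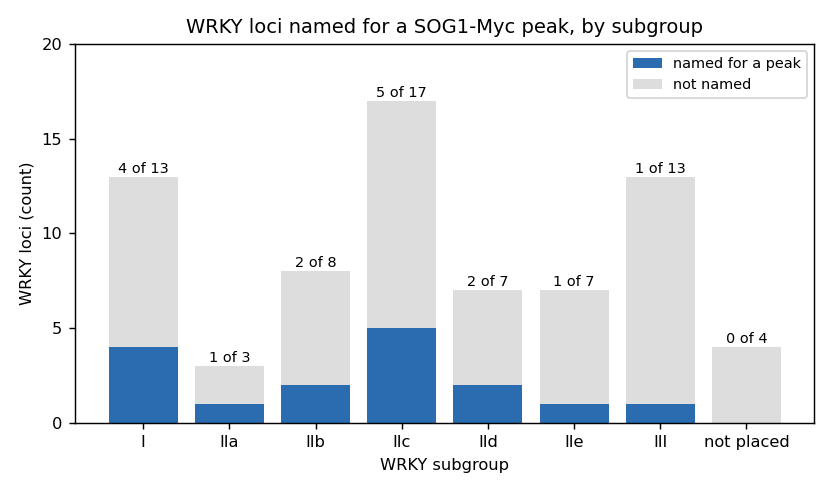
Number of WRKY loci named (blue) and not named (grey) for a SOG1-Myc peak in each subgroup of the family, as counts of loci. Subgroup IIc had 5 of 17 named (29.4%), group I 4 of 13 (30.8%) and group III 1 of 13 (7.69%), beside 4.99% of all protein-coding loci.

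The members without a peak included close relatives of named ones. In group I these were WRKY1, WRKY3, WRKY4, WRKY10, WRKY20, WRKY32, WRKY33, WRKY34 and WRKY58. In subgroup IIb they were WRKY9, WRKY31, WRKY36, WRKY42, WRKY61 and WRKY72. In subgroup IIc they were WRKY8, WRKY12, WRKY13, WRKY23, WRKY24, WRKY43, WRKY49, WRKY51, WRKY56, WRKY57, WRKY68 and WRKY71. WRKY15, WRKY17, WRKY21, WRKY39 and WRKY74 of IId, and WRKY14, WRKY27, WRKY29, WRKY35, WRKY65 and WRKY69 of IIe, were likewise not named. The same held in group III for WRKY30, WRKY38, WRKY41, WRKY46, WRKY54, WRKY55, WRKY62, WRKY63, WRKY64, WRKY66, WRKY67 and WRKY70. Since the depth of the library is unknown, a member without a peak cannot be told from a site under the detection limit.

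By chromosome, 7 of the 16 WRKY loci on chromosome 4 were named (43.8%, exact interval 19.8 to 70.1), 5 of 17 on chromosome 5, 3 of 17 on chromosome 2, 1 of 16 on chromosome 1 and none of 6 on chromosome 3 (interval up to 45.9%). Over all protein-coding loci the share was 4.83% on chromosome 4 and 4.83 to 5.07% over the 5 chromosomes. The difference between chromosomes was not tested.

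For most members the list does not say which neighbour the peak belongs to. A WRKY gene was the only gene named at 5 of the 19 peaks (26.3%), beside 199 of all 778 (25.6%), and these 5 belong to WRKY6, WRKY28, WRKY47 and WRKY48. Those 4 loci are 5.56% of the family, beside 0.66% of protein-coding loci named at such peaks. The other 12 named loci shared every peak with at least 1 other gene. No peak named 2 WRKY genes. The 14 shared peaks named 19 other genes, of which 18 are protein-coding and 12 are the next protein-coding locus to the WRKY gene in the gene table.

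Some of these neighbours have known roles. ATCHX13 (AT2G30240), a potassium transporter gene, shared the peak of WRKY25, and ACBP3 (AT4G24230), an acyl-CoA-binding protein gene, that of WRKY7. POLAR (AT4G31805), a gene of asymmetric division in the stomatal lineage, shared the peak of WRKY18. EXO70G1 (AT4G31540), an exocyst subunit gene, and HCF153 (AT4G31560), needed for assembly of a thylakoid complex, shared that of WRKY11. CYP96A5 (AT2G21910), a cytochrome P450 gene, and the pseudogene AT2G21905 shared that of WRKY59, and PRA1.B6 (AT5G07110) and AT5G07090 that of WRKY26.

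The WRKY44 peak named the most genes, with ADK (AT2G37250), AT2G37240 and AT2G37230 beside it, all on the same side. AT4G01240 and AT4G01245, the next loci on either side of WRKY22, were named at both of its peaks. AT5G56260 was named at both WRKY2 peaks and HAP8 (AT5G56250) at the lower-coordinate peak only. AT5G26180 shared the peak of WRKY50. At WRKY7, WRKY53 and WRKY75 the other gene named, ACBP3, AT4G23840 and AT5G13100, lay with 1 protein-coding locus between it and the WRKY gene that was not named for the peak.

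A list of 38 genes that work with WRKY factors was taken beside the family: MAPK cascade kinases, VQ-motif partner proteins, immune receptors, and defence and senescence genes. VQ-motif genes were taken only if picked by name or if a VQ number was among their names, so others may be missing. Of the 38 genes, 4 were named (10.5%, exact interval 2.94 to 24.8), beside the 4.99% of all protein-coding loci, which lies inside this interval. BIK1 (AT2G39660), a kinase acting directly after immune receptors, was named at an 8.75-fold peak of 240 reads at chromosome 2, 16528469 to 16530289, together with 4 other genes. VQ9 (AT1G78310), a VQ-motif protein that binds WRKY8, was the only gene at a 5.53-fold peak of 62 reads at chromosome 1, 29465688 to 29466414. SAG101 (AT5G14930), a partner of the immune regulator EDS1, had a 4.67-fold peak of 124 reads at chromosome 5, 4827881 to 4829199, and PEPR1 (AT1G73080), which senses damage peptides at the cell surface, a 3.25-fold peak of 67 reads at chromosome 1, 27483704 to 27484521, each shared with 1 other gene. MPK3, MPK4, MPK6, MEKK1, MKK4, MKK5, FLS2, NPR1, ICS1, PAD3, PAD4, EDS1, FRK1, PR1 and SAG12 were among the 34 not named.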

How the data were processed

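Values come from the peak list deposited for the tagged library. CASAVA 1.8.2 and the build TAIR10 are named in the submitters' processing notes; the sources used here do not give the aligner, peak caller, control, thresholds or rule of gene assignment. Per the file headers, each peak has a read count, unscaled, a fold enrichment, which is a ratio, a Decibel Score, which is a score with no stated formula, an FDR, read as a q-value, and its length and summit in bp. The 1645 lines were collapsed to 778 peaks. For 9 of the 19 WRKY peaks the length leaves out 1 end base that it includes for the other 10, so an edge may be off by 1 bp.

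Of 1513 loci named, 1483 (98.0%) matched the RefSeq gene table of assembly TAIR10.1, used for names, classes and gene order only; positions are those of the peak list. Printed by rule are every WRKY locus, the genes sharing its peak and the named partner genes.

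With 1 library there is no replicate error, and no test was made. Library depth is unknown; exact Poisson intervals of reads and Clopper-Pearson intervals of shares (scipy 1.17.1, 95%) cover counting error only, and reads may include PCR copies. The collapsing was tested on simulated data. No sequence was used, so the planned motif and domain counts were not made. Members and lists were chosen with earlier results of these data known.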

Additional observations from a re-analysis of the deposited data

How the results depend on the processing

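The count of 16 named WRKY loci was unchanged when members were found by locus identifiers of the gene table. It fell with fewer peaks. Among the 389 peaks with the highest fold enrichment 10 loci were named (13.9%, beside 2.51% of all protein-coding loci), and among the 389 with the highest Decibel Score 8 (11.1%, beside 2.51%). With peaks that name 1 gene, 4 loci were named (5.56%, beside 0.66%). Fewer peaks by construction name fewer genes. The median reads of WRKY peaks, 77, became 74 with the strongest peak of each locus by fold enrichment and 87 with peaks that name 1 gene. It was 68 among the 389 peaks with the highest fold enrichment, a setting chosen after seeing the data. As reads per kb the median was 89.4. The median fold enrichment, 4.55, became 4.59 and 4.97 under the first and second of these settings. The median length, 925 bp, became 853 bp with the strongest peak of each locus. Choosing by fold enrichment keeps the WRKY2 peak of 53 reads and drops that of 106 reads. No paired analysis was possible because each group has 1 library. The motif alternatives were not run, for want of sequence. Depth is unknown, so an unnamed gene is not shown to lack SOG1.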

Other observations

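Of the 56 WRKY genes without a peak, 3 had a named gene as the next protein-coding locus on either side (5.36%), beside 1373 of 26075 unnamed protein-coding loci (5.27%), a share near this background. Counting 2 loci on each side, it was again 3 of 56 (5.36%), beside 2560 of 26075 (9.82%), and the difference was not tested. Beside WRKY72 lay PCO1 (AT5G15120), a cysteine oxidase gene of oxygen sensing, with a 7.03-fold peak of 66 reads at chromosome 5, 4898280 to 4899003. Beside WRKY17 lay AT2G24560, with a 5.09-fold peak of 244 reads at chromosome 2, 10427290 to 10429740. Beside WRKY66 lay WIN1 (AT1G80600), with a 3.21-fold peak of 92 reads at chromosome 1, 30302077 to 30303182. The peak beside WRKY72 named 2 genes in all, and those beside WRKY17 and WRKY66 named 3 each. The list names neither WRKY72, WRKY17 nor WRKY66 for these peaks.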
